A study of Schizosaccharomyces pombe with 17 samples.

Results

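The genes pdx1 (SPCC1259.09c) and SPCC1259.08 lie next to each other on chromosome III of fission yeast, Schizosaccharomyces pombe. They were followed together because both had much less polyA RNA in the strain rrp6-cat than in wild type. They are 2 of the 7027 features with a deposited value in 14 libraries, and both were among the 6083 features that passed the filter on low values (mean over all libraries not under 1 FPKM). By the reference annotation the pair converge on opposite strands and overlap at their 3′ ends. The libraries were made with a dUTP kit, which keeps the strand. Whether counting used it is not stated, so reads over the overlap may count for either gene.

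The mitochondrial pyruvate dehydrogenase complex turns pyruvate into acetyl-CoA and so feeds the citric acid cycle. Its E1 part (pda1 and pdb1) decarboxylates pyruvate, its E2 core (lat1) carries the acetyl group on a lipoyl arm, and its E3 part (dld1) reoxidises that arm. Pdx1, protein X, is known from budding yeast, Saccharomyces cerevisiae, as the protein that holds E3 on the E2 core. SPCC1259.08 is named in the reference as an uncharacterised protein. Rrp6 and Dis3 are the exonucleases of the nuclear RNA exosome, which trims and destroys RNA.

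PolyA-selected RNA was sequenced from 7 groups of 2 libraries. Wild type (strain CHP1365), rrp6Δ (JLP1704) and rrp6-cat (JLP1708) grew at 32 °C in the rich medium YES. The strains dis3-4 (JT449) and rrp6-cat dis3-4 (JLP1863, here the double mutant) grew at 23 °C and were sampled there and after 1 h at 30 °C, so against wild type they differ in temperature as well as genotype. Each genotype is a single named strain, and the changes that the names rrp6-cat and dis3-4 stand for are not spelled out in the labels. RNA of the rrp6 gene was present where rrp6Δ is the label (179 and 128 FPKM, and 95.4 and 43.2 in wild type), so that label is given as written. FPKM, fragments scaled to transcript length and library, summed to 618712 to 842245 per library. Read totals are unknown, and the smallest steps between low values give only a rough relative depth. By these steps wild type replicate 1 was the deepest library. The others stood from 0.245 (wild type replicate 2) to 0.683 (replicate 1 labelled rrp6Δ) of its depth. Nothing says that the 2 replicates of a group were separate cultures, so p-values measure only the spread between these libraries, and lower RNA per cell cannot be told apart from fewer cells holding the RNA.

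SPCC1259.08 was an RNA of middling abundance everywhere except in rrp6-cat. Wild type replicates 1 and 2 held 89.3 and 60.9 FPKM of it, and those of rrp6-cat 6.55 and 1.98 FPKM. Those labelled rrp6Δ held 64.6 and 57.5 FPKM. These values choose the gene and are given as a description, with no test: both rrp6-cat libraries lay below all of the other 12, which ran from 45.9 to 89.3 FPKM with a median of 63.7. Even the higher rrp6-cat library was 7.00-fold below the lowest of the others. In dis3-4 the gene stood at 52.5 and 74.7 FPKM at 23 °C and at 46.2 and 45.9 FPKM at 30 °C. The double mutant, which has rrp6-cat in its name too, held 72.5 and 63.8 FPKM at 23 °C and 63.7 and 85.6 FPKM at 30 °C. All 4 values of the double mutant lay between those of wild type.

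For pdx1 the rrp6-cat libraries were again the lowest of all, at 5.20 and 13.0 FPKM, while wild type held 64.1 and 88.8 FPKM. The other 12 libraries ran from 27.7 to 88.8 FPKM with a median of 46.3, and the lowest of them was 2.13-fold above the higher rrp6-cat library. Both rrp6-cat libraries were low for both genes, but these values chose pdx1 too and are a description with no test. The libraries labelled rrp6Δ held 37.0 and 46.1 FPKM of pdx1. In dis3-4 it stood at 46.5 and 65.3 FPKM at 23 °C and at 58.6 and 46.5 FPKM at 30 °C. In the double mutant it stood at 29.9 and 27.7 FPKM at 23 °C and at 30.1 and 40.0 FPKM at 30 °C. The lowest libraries of pdx1 outside rrp6-cat were thus those of the double mutant at 23 °C, whereas for SPCC1259.08 they were those of dis3-4 at 30 °C.

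**Figure D1:**
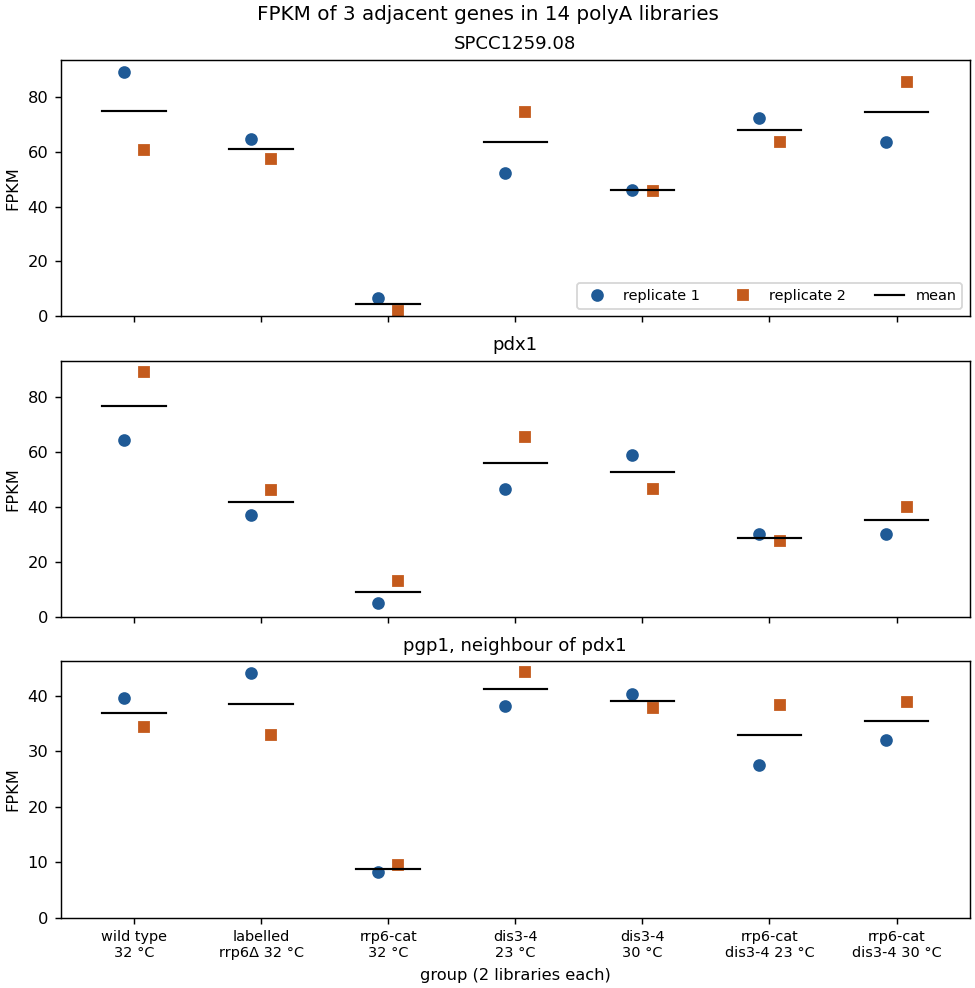
FPKM of SPCC1259.08, pdx1 and the next gene pgp1 in each of the 14 libraries, by group, on a linear axis from 0; points are libraries and bars are means of 2. The 2 rrp6-cat libraries are the lowest in every panel, while the rrp6-cat dis3-4 libraries stand with the other groups for SPCC1259.08 and pgp1 and low in the range of the others for pdx1.

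Against wild type, the mean of SPCC1259.08 in rrp6-cat was 5.68% of the wild type mean (4.27 ± 3.23 against 75.1 ± 20.1 FPKM, SD, n = 2 each), and that of pdx1 was 11.9% (9.12 ± 5.54 against 76.4 ± 17.5 FPKM). On the log2(FPKM + 1) scale the differences were -3.98 (95% interval -4.83 to -3.12) and -3.03 (-3.85 to -2.22). Of the tested features 0.756% were called lower in rrp6-cat than in wild type, a share from which nothing is read here because the pair was chosen for this comparison. Both rrp6-cat libraries lay below the other 12 for 37 features in all, 0.608% of those tested. The authors' deposited table, which combines the replicates, gives 4.17 FPKM for SPCC1259.08 and 9.21 FPKM for pdx1 in rrp6-cat.

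Within rrp6-cat the libraries differed from each other, and in opposite directions for the 2 genes. SPCC1259.08 was 3.31-fold higher in replicate 1 than in replicate 2, and pdx1 was 2.51-fold higher in replicate 2 than in replicate 1. Each gene was thus low in both libraries, at levels that differed between them. Wild type and the libraries labelled rrp6Δ showed the same opposed order, so that in all 3 groups at 32 °C SPCC1259.08 was higher in replicate 1 and pdx1 in replicate 2. With each library left out in turn, the difference from wild type ran from -4.65 to -3.31 for SPCC1259.08 and from -3.62 to -2.44 for pdx1.

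The reverse comparisons share the rrp6-cat libraries with the choice of the genes and are likewise descriptions. The libraries labelled rrp6Δ stood above rrp6-cat by a log2 difference of 3.71 for SPCC1259.08 and of 2.18 for pdx1. Between these groups 1.69% of the features were called in either direction. The double mutant at 30 °C stood above rrp6-cat by 3.98 for SPCC1259.08 and by 1.93 for pdx1, with 1.12% of the features called. So the strain that carries dis3-4 in addition to rrp6-cat did not share the low level of the single mutant for SPCC1259.08, and held a middle level of pdx1. The single and the double mutant are separately named strains grown at different temperatures, and strain, dis3-4 and temperature cannot be told apart here.

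Ordered by their means, the groups ran for SPCC1259.08 from wild type (75.1 FPKM) through the double mutant at 30 °C (74.6), the double mutant at 23 °C (68.1), dis3-4 at 23 °C (63.6), labelled rrp6Δ (61.0) and dis3-4 at 30 °C (46.0) to rrp6-cat (4.27). Neighbours in this order overlapped, except that both libraries labelled rrp6Δ lay above both of dis3-4 at 30 °C and these above both of rrp6-cat. For pdx1 the order was wild type (76.4 FPKM), dis3-4 at 23 °C (55.9), dis3-4 at 30 °C (52.6), labelled rrp6Δ (41.5), the double mutant at 30 °C (35.0), the double mutant at 23 °C (28.8) and rrp6-cat (9.12). Here dis3-4 at 30 °C lay only just above the libraries labelled rrp6Δ (its lower library at 46.5 FPKM, their higher at 46.1). The double mutant at 30 °C lay only just above that at 23 °C (lower library at 30.05 FPKM, against the higher at 29.91). Both temperatures of the double mutant lay above rrp6-cat. Over all libraries the mean of SPCC1259.08 was 56.1 FPKM and that of pdx1 42.8 FPKM, above 68.4% and 58.6% of the tested features.

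The comparisons of the other mutants with wild type were tested with limma, an adjusted p under 0.05 after Benjamini-Hochberg adjustment over all tested features being a call. They share the wild type libraries with the comparison that chose the genes, and a high wild type value enters all of them. The gene pdx1 was lower in the double mutant at 23 °C than in wild type, by a log2 difference of -1.36 (95% interval -2.18 to -0.54, adjusted p = 0.0364), both libraries lying below both of wild type. This was 1 of the 2 genes, where 2.38% of the features were called lower. The call ended without wild type replicate 2 (adjusted p = 0.140) and without double mutant replicate 1 (0.149) or 2 (0.180), with differences from -1.59 to -1.13 over the 4 libraries left out. In the same comparison SPCC1259.08 differed by -0.12 (-0.97 to 0.74, adjusted p = 0.890).

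At 30 °C the double mutant differed from wild type by -1.10 for pdx1 (-1.92 to -0.28, adjusted p = 0.0747), with both libraries below both of wild type, and by 0.00 for SPCC1259.08 (-0.85 to 0.85, adjusted p = 1). Neither passed, and 2.22% of the features were called lower. Without wild type replicate 1 the value for pdx1 was -1.33 and passed (adjusted p = 0.0435). In the libraries labelled rrp6Δ pdx1 differed by -0.85 (-1.67 to -0.04, adjusted p = 0.172) and SPCC1259.08 by -0.27 (-1.12 to 0.58, adjusted p = 0.725), so neither gene was among the 2.70% called lower.

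In dis3-4 alone neither gene was called. At 23 °C the differences from wild type were -0.23 for SPCC1259.08 (-1.08 to 0.62, adjusted p = 0.813) and -0.45 for pdx1 (-1.26 to 0.37, adjusted p = 0.586), with 0.723% of the features called lower. At 30 °C they were -0.67 (-1.52 to 0.18, adjusted p = 0.342) and -0.52 (-1.34 to 0.29, adjusted p = 0.448), with 2.20% called lower.

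Comparisons that use no library of the choice were made between the double mutant and dis3-4. At 23 °C pdx1 was lower in both double mutant libraries than in both of dis3-4, by -0.91 (-1.73 to -0.10), but this did not pass the adjustment (adjusted p = 0.313). SPCC1259.08 differed there by 0.12 (-0.74 to 0.97, adjusted p = 0.952), and 0.986% of the features were called in either direction. At 30 °C the difference was 0.67 for SPCC1259.08 (-0.18 to 1.52, adjusted p = 0.431), both double mutant libraries lying above both of dis3-4. For pdx1 it was -0.58 (-1.39 to 0.24, adjusted p = 0.481), also without overlap, and 1.84% of the features were called. Between the double mutant and dis3-4, each a single strain, neither gene thus passed the test at either temperature.

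The hour at 30 °C gave no call for either gene. In dis3-4 the shift was -0.44 for SPCC1259.08 (-1.29 to 0.42) and -0.08 for pdx1 (-0.89 to 0.74). In the double mutant it was 0.12 (-0.74 to 0.97) and 0.26 (-0.56 to 1.08), and the adjusted p was 1 in all 4 cases. The difference between the double mutant and dis3-4, each a single strain, did not change with temperature beyond the error. The change was 0.55 for SPCC1259.08 (-0.65 to 1.76) and 0.34 for pdx1 (-0.82 to 1.49), both at an adjusted p of 0.999. These comparisons had 0 calls among all features by limma (0% of those tested), with 273, 96 and 163 features at an unadjusted p under 0.05.

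Although the pair overlap, their values showed little relation outside rrp6-cat. Over the 14 libraries their log2(FPKM + 1) values had Pearson's r = 0.77 and Spearman's rho = 0.30, and without the 2 rrp6-cat libraries r was -0.05 and rho -0.11 (n = 12). The relation thus rests on the rrp6-cat libraries, which share a strain, and it is given with no p. The FPKM ratio of SPCC1259.08 to pdx1 was between 2.12 and 2.42 in all 4 libraries of the double mutant. It was 1.39 and 0.686 in wild type and the label rrp6Δ went with 1.75 and 1.25. In dis3-4 it ran from 0.789 to 1.14 over both temperatures, and in rrp6-cat it was 1.26 and 0.152. All 4 libraries of the double mutant lay above all of the other 10, a pattern noticed in the data and not tested. Outside rrp6-cat SPCC1259.08 spanned only 45.9 to 89.3 FPKM, so a weak r there does not show that the genes vary apart. Reads over the overlap may count for either gene, and their part in these ratios was not tested.

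**Figure D2:**
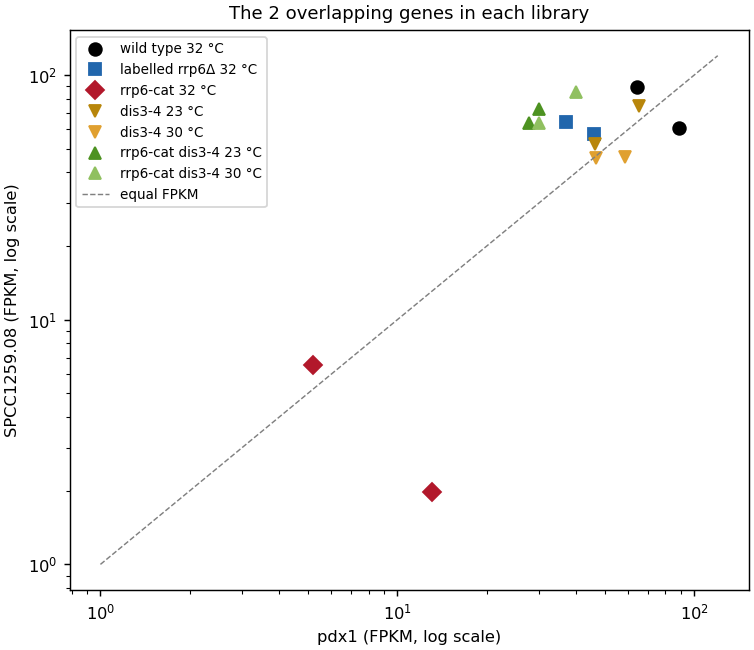
FPKM of pdx1 against FPKM of SPCC1259.08, both on log axes, with 1 point per library and a colour per group. The 2 rrp6-cat points lie apart at the low end of both axes, the one higher in SPCC1259.08 being the lower in pdx1, and the 4 rrp6-cat dis3-4 points sit where pdx1 is low for its level of SPCC1259.08.

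The fall in rrp6-cat extended along the chromosome beyond the pair. The next gene on the far side of pdx1, pgp1 (SPCC1259.10), which the reference names as a metallopeptidase, lies on the opposite strand and does not overlap pdx1. It stood at 8.19 and 9.44 FPKM in rrp6-cat, against 39.5 and 34.4 FPKM in wild type and 27.5 to 44.4 FPKM over the other 12 libraries. Unlike the pair, its rrp6-cat libraries agreed closely. It was lower than in wild type by a log2 difference of -1.95 (SE 0.27, limma adjusted p = 0.00124). The value ran from -2.05 to -1.85 with each library left out, and the call held in each case. With the spread taken from the 3 groups at 32 °C alone, the same difference had an adjusted p of 0.0917.

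In the other mutants pgp1 stood near wild type. The libraries labelled rrp6Δ held 44.1 and 32.9 FPKM, dis3-4 from 37.8 to 44.4 FPKM over both temperatures, and the double mutant from 27.5 to 38.9 FPKM. The libraries labelled rrp6Δ were above rrp6-cat by 2.00 (adjusted p = 0.00301, and 0.185 with the spread of the 32 °C groups alone), and the double mutant at 30 °C was above it by 1.89 (adjusted p = 0.0111). The second of these calls ended without rrp6-cat replicate 1 (adjusted p = 0.115) or either library of the double mutant (0.122 and 0.174). Set beside the pair, the differences of the double mutant at 30 °C from rrp6-cat were 3.98 for SPCC1259.08, 1.93 for pdx1 and 1.89 for pgp1. These calls of pgp1, and its call against wild type, all rest on the same rrp6-cat libraries for which the pair was chosen. They are therefore not separate support for one another.

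The gene after pgp1 among those measured, gyp2 (SPCC1259.11c), a GTPase-activating protein, was the next to stand low. Its rrp6-cat libraries held 27.0 and 19.6 FPKM, below the 27.5 to 45.5 FPKM of the other 12, and wild type held 45.5 and 39.4. The log2 difference from wild type was -0.85 (SE 0.26) and did not pass (adjusted p = 0.0872). It passed with libraries rescaled by size factors (-1.01, adjusted p = 0.0349) or by quantiles (-1.04, adjusted p = 0.0333). Past gyp2 the gene gid1 stood at wild type level (-0.01, adjusted p = 1). The difference was largest for the pair, which was chosen for it, and smaller at pgp1 and gyp2 in turn. On the other side of the pair SPNCRNA.1170 stood at -1.49 (SE 0.63). Which of the pair fell more rests on rrp6-cat replicate 2: without it SPCC1259.08 differed by -3.31 and pdx1 by -3.62.

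On the other side of SPCC1259.08 no gene was called. The noncoding RNA SPNCRNA.1170 lies next to it and held 5.92 and 3.78 FPKM in rrp6-cat against 17.4 and 13.3 in wild type (-1.49, SE 0.63, adjusted p = 0.244). It was lower still in replicate 2 of dis3-4 at 30 °C (1.03 FPKM), so its groups overlap. The genes taf8 and rxt3 on that side were listed at under 1 FPKM in every library and were not tested. SPCC1259.16, between them, differed by -0.10 (adjusted p = 0.958) and cox9, further out, by 0.43 (adjusted p = 0.320). Of the 13 neighbouring features that were tested, counting every other gene whose name starts with SPCC1259, 1 was called lower in rrp6-cat than in wild type (pgp1) and none higher, beside 0.756% of all tested features called lower. Of the 13, 2 had both rrp6-cat libraries below the other 12 (pgp1 and gyp2), beside 0.608% of all tested features.

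**Figure D3:**
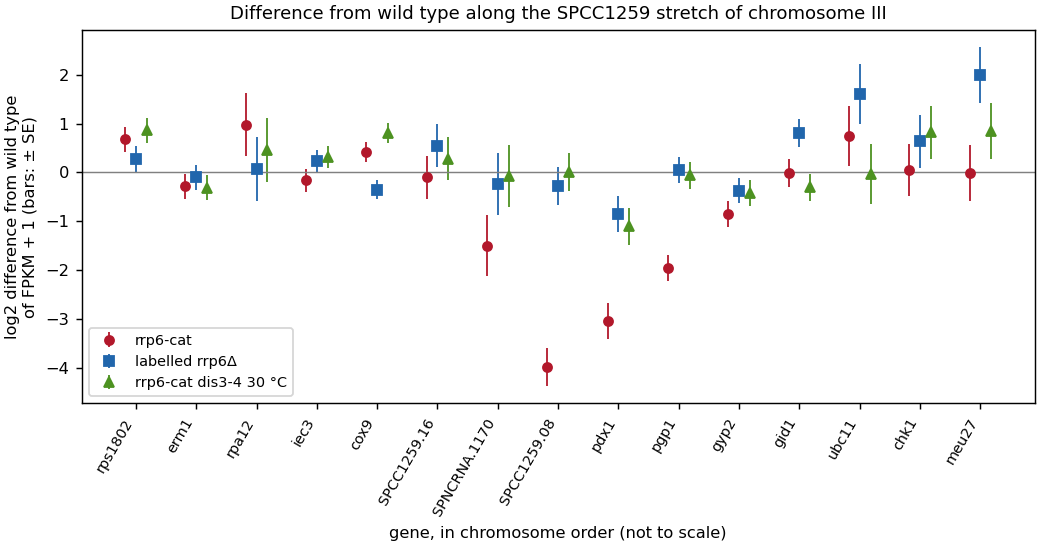
Log2 difference from wild type with its SE for the 15 tested features around the pair, in their order on the chromosome, for rrp6-cat, the libraries labelled rrp6Δ and rrp6-cat dis3-4 at 30 °C. In rrp6-cat the value is -1.49 (SE 0.63) at SPNCRNA.1170, just before the pair, and -3.98 at SPCC1259.08. It then steps back through -3.03 at pdx1, -1.95 at pgp1 and -0.85 at gyp2 to -0.01 at gid1. Without rrp6-cat replicate 2 the lowest point is pdx1 (-3.62, and -3.31 at SPCC1259.08). In the other 2 groups pdx1 is the lowest of the 15, at -0.85 and -1.10, while SPCC1259.08 stands at -0.27 and 0.00 and pgp1 at 0.05 and -0.06.

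Stretches of this kind were then counted over all tested features. The 37 features with both rrp6-cat libraries below the other 12 fell into 33 runs of features that were next to each other among those tested. There was 1 run of 2 features and 1 of 4, and the run of 4 was SPCC1259.08, pdx1, pgp1 and gyp2. Of the features called lower in rrp6-cat against wild type, 44 had a place in the reference order and formed 37 runs. One of these runs held SPCC1259.08, pdx1 and pgp1, and the longest, of 4 features, lay elsewhere. Runs were counted after the values of the neighbours had been seen, and they are a description.

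Of all tested features, pgp1 was also the one whose values over the 14 libraries were most like those of each gene. Its Pearson's r of log2(FPKM + 1) was 0.93 with SPCC1259.08 and 0.88 with pdx1. Without the rrp6-cat libraries these fell to 0.02 and 0.34 (n = 12), so that likeness too came from the rrp6-cat libraries. The next most like SPCC1259.08 were SPNCRNA.674 (r = 0.85), SPNCRNA.949 (0.83), the phosphate transporter gene plt1 (0.77) and the palmitoyltransferase gene akr1 (0.76), pdx1 itself ranking between them at 0.77. Their differences in rrp6-cat were small beside those of the pair: SPNCRNA.674 stood at 53.0 and 39.8 FPKM in rrp6-cat and at 54.2 to 76.7 FPKM in the other 12 libraries.

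For pdx1 the likeness to other genes reached beyond rrp6-cat. The myo-inositol transporter gene itr2 (r = 0.84), SPNCRNA.1692 (0.83), the actin gene act1 (0.80) and the flavin monooxygenase gene fmo1 (0.80) followed pgp1. Over the 12 libraries without rrp6-cat their r was 0.72, 0.65, 0.82 and 0.75. All of these correlations were picked as the highest among the tested features and share the same libraries.

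The other subunit genes of pyruvate dehydrogenase did not show the level of pdx1 in rrp6-cat. In its 2 libraries pda1 stood at 174 and 215 FPKM (168 to 369 in the other 12) and pdb1 at 72.6 and 97.1 (64.3 to 179). The E2 gene lat1 stood at 292 and 197 FPKM (132 to 451) and the E3 gene dld1 at 68.6 and 79.3 (62.1 to 203). All 4 lay inside the range of the other libraries, while pdx1 lay below it. Of the summed FPKM of these 4 genes and pdx1, pdx1 made up 0.849% and 2.17% in rrp6-cat and from 5.33% to 9.10% in the other 12 libraries.

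**Figure D4:**
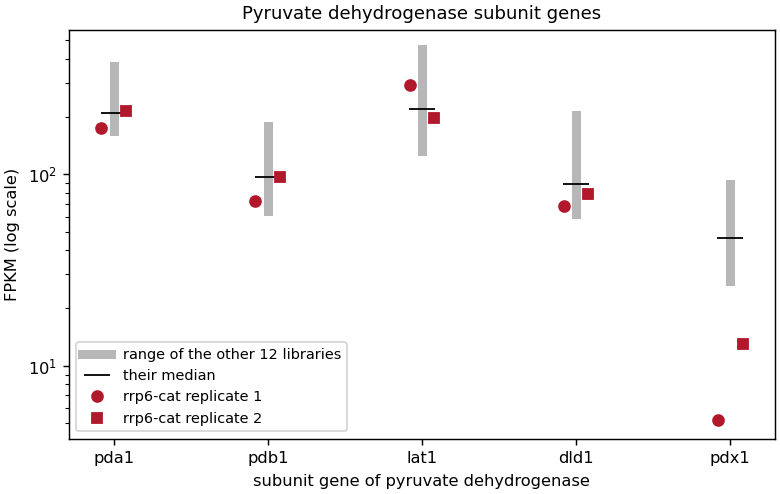
FPKM on a log axis of the 5 genes for pyruvate dehydrogenase subunits, with a bar from the lowest to the highest of the 12 libraries outside rrp6-cat, a mark at their median and a point for each rrp6-cat library. The rrp6-cat points of pda1, pdb1, lat1 and dld1 lie on their bars, and those of pdx1 at 5.20 and 13.0 FPKM lie below a bar that starts at 27.7.

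Against wild type the list of the complex without pdx1 (pda1, pdb1, lat1, dld1 and the kinase gene pkp1) had 0 of 5 members called in rrp6-cat by limma, with 3 at an unadjusted p under 0.05. Its median log2 difference was -0.64, where that of all tested features was 0.18. The nearest to a call were lat1 (-0.80, SE 0.26, adjusted p = 0.104) and dld1 (-0.93, adjusted p = 0.105), while pkp1 stood at 0.54 (adjusted p = 0.350). With size factors or quantiles 1 of the 5 was called lower, and without wild type replicate 1 there were 3.

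In other mutants some of these genes were called lower than wild type. The E2 gene lat1 stood at 451 and 385 FPKM in wild type. The libraries labelled rrp6Δ held 221 and 152 FPKM of it, and the double mutant at 23 °C held 164 and 132. It fell by 1.18 in the former (adjusted p = 0.0105), by 1.50 in the latter (adjusted p = 0.00344) and by 1.26 in the double mutant at 30 °C (adjusted p = 0.00733). The gene dld1 fell by 1.10 in the libraries labelled rrp6Δ (adjusted p = 0.0326) and pda1 by 0.78 in dis3-4 at 30 °C (adjusted p = 0.0483). In the libraries labelled rrp6Δ 2 of the 5 members were called lower, and 1 each in dis3-4 at 30 °C and in the double mutant at either temperature. Of all tested features 2.70% were called lower in the first, 2.20% in dis3-4 at 30 °C, and 2.38% and 2.22% in the double mutant at 23 °C and 30 °C. With the 3 groups at 32 °C alone the count for labelled rrp6Δ was 0. Without wild type replicate 1 these counts were 3, 2, 4 and 4. Each of these comparisons also lost its calls when certain single libraries were left out. For labelled rrp6Δ this was its replicate 2. For dis3-4 at 30 °C it was either of its libraries or wild type replicate 2. For the double mutant it was its replicate 2 at 23 °C and its replicate 1 at 30 °C. In the double mutant at 23 °C pdx1 and lat1 were thus both called lower than in wild type, and pda1, pdb1, dld1 and pkp1 were not called.

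The citric acid cycle, which takes up the acetyl-CoA, was followed through 12 tested genes. In rrp6-cat 2 of them were called lower, the succinate dehydrogenase gene sdh1 (-0.78, adjusted p = 0.0267) and the citrate synthase gene cit1 (-0.68, adjusted p = 0.0458), beside 0.756% of all tested features. Called lower were 6 where the label was rrp6Δ, 3 in dis3-4 at 30 °C, 4 in the double mutant at each temperature and, by limma, 0 in dis3-4 at 23 °C (6 at an unadjusted p under 0.05), with 0 called higher in any of these. The shares of all tested features called lower in these comparisons were 2.70% for labelled rrp6Δ, 2.20% for dis3-4 at 30 °C, 2.38% and 2.22% for the double mutant at 23 °C and 30 °C, and 0.723% for dis3-4 at 23 °C. The median of the list ran from -0.73 to -0.27 over these 6 comparisons, and those of all features from -0.03 to 0.24. All 6 share the same wild type libraries, the group whose replicates differed most. Between the double mutant and dis3-4, limma called 0 of the 12 at either temperature (0 and 1 at an unadjusted p under 0.05). The list medians there were -0.078 at 23 °C and -0.055 at 30 °C, and 0.986% and 1.84% of all features were called. In rrp6-cat both calls were lost without wild type replicate 2 or either rrp6-cat library, and size factors and quantiles gave 3 and 4. Without single libraries the counts of the others ran from 2 to 6 for labelled rrp6Δ, 0 to 4 for dis3-4 at 30 °C, 0 to 3 for dis3-4 at 23 °C, and 0 to 6 and 1 to 6 for the double mutant at 23 °C and 30 °C. The highest came without wild type replicate 1. The lowest came without replicate 2 of labelled rrp6Δ, of dis3-4 at 30 °C or of the double mutant at 23 °C, and without replicate 1 of the double mutant at 30 °C. With the 3 groups at 32 °C alone 1 was called lower for labelled rrp6Δ and 0 in rrp6-cat.

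Of 6 tested genes for lipoate and other lipoyl enzymes, 1 was called in rrp6-cat against wild type, gcv2 of the glycine cleavage system, beside 0.756% of all tested features called lower. It stood at 56.9 and 91.1 FPKM in wild type, 30.4 and 37.6 in rrp6-cat and 112 and 122 in the double mutant at 30 °C. It was lower in rrp6-cat (-1.07, adjusted p = 0.0399) and higher in the double mutant at 30 °C than in dis3-4 at 30 °C (1.37, adjusted p = 0.0317). The latter was no longer called after rescaling by size factors or quantiles, with only wild type and the dis3-4 strains, or without dis3-4 replicate 2 or either double mutant library. Of 9 tested genes for pyruvate supply and fermentation, 2 were called lower in rrp6-cat, the alcohol dehydrogenase gene adh4 (-1.36, adjusted p = 0.0475) and the malic enzyme gene mae2 (-0.81, adjusted p = 0.0281), against the same background share. Both were further below wild type where the label was rrp6Δ (adh4 -2.47, adjusted p = 0.000757, and mae2 -1.62, adjusted p = 0.000161). In the double mutant mae2 was called lower at 23 °C (-0.73, adjusted p = 0.0276) and 30 °C (-0.70, adjusted p = 0.0295), and adh4 was not called. By contrast adh4 was far above wild type in dis3-4 at 23 °C (3.11, adjusted p = 0.000304) and 30 °C (3.40, adjusted p = 0.000115). There mae2 was not called. The calls of gcv2, adh4 and mae2 in rrp6-cat were all lost without wild type replicate 2 or either rrp6-cat library, and with the 3 groups at 32 °C alone.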

How the data were processed

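The members and gene lists were chosen with earlier results of these data known. Per the submitters' processing notes, TopHat2 2.1.0, Bowtie2, Cufflinks 2.2.1, Cuffnorm and Cuffdiff were used with build ASM294v2. The authors deposited FPKM per library for 7027 features, and a second FPKM table with replicates combined, used only where named. Signal (read coverage) deposited for 3 libraries of RNA ligated at its 3′ ends does not cover the pair and was not used. Annotation, scaling and read depth are not stated in the labels or headers.

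Names came from the reference table (6839 IDs matched). That reference is build ASM294v3, so it served only for names, neighbours and overlaps. FPKM plus 1 was log2-transformed, which understates changes of low values. The 6083 features with a mean of at least 1 FPKM were fitted in limma 3.58.1 (R 4.3.3) with 7 group means over all 14 libraries, empirical Bayes moderation with a trend, two-sided tests and Benjamini-Hochberg adjustment. A call is an adjusted p under 0.05. Intervals are 95% from the moderated error. The model was tested on simulated data. Named genes were the pair, rrp6, the 5 features most like each, chromosomal neighbours, and members of 4 lists. Of these sdh4 was not found by name, and lip5, pdc202 and adh1 fell under the filter and were not tested. The gene adh1 of the fermentation list stood at 0 or next to 0 FPKM in all 14 libraries, and why was not tested. Pseudocounts of 0.1 and 5, no filter, size factors, quantiles, a replicate block, subsets of groups and each library left out were tried. The mean square between replicates, in log2 units, was 0.663 in wild type and 0.166 to 0.334 in the other groups, so the shared spread understates the error of comparisons with wild type.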

Additional observations from a re-analysis of the deposited data

Results flagged for a closer look

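For SPCC1259.08 both rrp6-cat libraries lay below both of wild type, and both double mutant libraries at 30 °C lay above both of dis3-4 at 30 °C, by 0.670 on the log2 scale (adjusted p = 0.431, not called). At 23 °C the double mutant differed from dis3-4 by 0.116, the libraries overlapped, and the sign changed when single libraries were left out (-0.134 to 0.367). The difference of rrp6-cat from wild type was not tested against that of the double mutant from dis3-4. The former was used to choose the gene, and no opposite movement is established.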

How the results depend on the processing

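Shared replicate numbers gave no pairing common to all groups. Over 21 pairs of groups the deviations of same-numbered libraries correlated at -0.154 to 0.315 (median 0.031), with 5 pairs over 0.1. Whether some groups share a replicate effect was not tested, and the main fit had no replicate block. The replicate block brought pdx1 in the double mutant at 30 °C against wild type (-1.10) past the threshold at an adjusted p of 0.0423, and gave 103 features called in the double mutant at 30 °C against rrp6-cat, where the fit without it gave 68. With a pseudocount of 5 the differences of SPCC1259.08 and pdx1 were -3.13 and -2.57 in rrp6-cat against wild type, 2.88 and 1.77 for labelled rrp6Δ against rrp6-cat, and 3.13 for SPCC1259.08 in the double mutant at 30 °C against rrp6-cat. The fall of pdx1 in the double mutant at 23 °C lost its call with a pseudocount of 0.1 (-1.39, adjusted p = 0.0503) and with no filter (-1.36, adjusted p = 0.0619). At 30 °C it gained one with a pseudocount of 5 (-1.02), quantiles (-1.34) and only the wild type and dis3-4 strains (-1.10), while SPCC1259.08 there turned to -0.21 with size factors and -0.19 with quantiles.

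Size factors moved the median of all features in rrp6-cat against wild type from 0.18 to 0.03, and quantiles moved it to -0.11. Features called numbered 343 in rrp6-cat against wild type, 103 for labelled rrp6Δ against rrp6-cat and 761 for labelled rrp6Δ against wild type, and 55, 9 and 207 with the 3 groups at 32 °C alone. Quantiles gave 199 for labelled rrp6Δ against rrp6-cat. The double mutant at 30 °C against rrp6-cat gave 116 with a pseudocount of 5, 124 with size factors and 169 with quantiles. Against dis3-4 at 23 °C (60) the double mutant gave 91, 93 and 102 under these settings and 33 with only wild type and the dis3-4 strains, and at 30 °C (112) 38 with the last. For the temperature shift of dis3-4 no filter gave 1 call and size factors 4, and no filter gave 2 for the double mutant and 3 for the interaction.

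With each library left out, rrp6-cat against wild type ran from -4.65 to -3.31 for SPCC1259.08 and from -3.62 to -2.44 for pdx1, labelled rrp6Δ against rrp6-cat from 3.04 to 4.38 and from 1.59 to 2.77, and the double mutant at 30 °C against rrp6-cat from 3.31 to 4.65 and from 1.34 to 2.52. Against wild type SPCC1259.08 changed sign in labelled rrp6Δ (-0.54 to 0.001), dis3-4 at 23 °C (-0.50 to 0.04) and the double mutant at 23 °C (-0.39 to 0.16) and 30 °C (-0.27 to 0.27), none of them called. So did SPCC1259.08 in the double mutant against dis3-4 at 23 °C (-0.13 to 0.37) and in its shift (-0.094 to 0.327), and pdx1 in the shift of dis3-4 (-0.32 to 0.17). For pdx1 the double mutant against wild type ran from -1.59 to -1.13 at 23 °C and from -1.33 to -0.87 at 30 °C. Counts of calls ran from 109 to 1253 in rrp6-cat against wild type, 23 to 58 for labelled rrp6Δ against rrp6-cat, 0 to 46 for the double mutant at 30 °C against rrp6-cat, and 333 to 1618 for labelled rrp6Δ, 114 to 904 and 198 to 1020 for dis3-4 at 23 °C and 30 °C, and 214 to 1456 and 283 to 1608 for the double mutant at 23 °C and 30 °C, each against wild type. They ran from 10 to 20 and from 9 to 103 for the double mutant against dis3-4 at 23 °C and 30 °C, and from 0 to 1 for the shift of dis3-4. The causes of these changes were not tested. Counts of list members under other scalings and left-out libraries were added after seeing the data. With 2 libraries a group and unknown read totals, falls as large as the intervals given allow could be missed. A limma call after adjustment is stricter than these intervals. For pdx1 in the double mutant at 30 °C against wild type the interval (-1.92 to -0.28) excluded 0 with no call (adjusted p = 0.0747).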
